A study of Mus musculus with 32 samples.

Results

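Hemoglobin and red cell transcripts were followed as 5 genes of the 53700 counted in whole mouse kidneys: the adult alpha-globin genes Hba-a1 and Hba-a2, the adult beta-globin genes Hbb-bs and Hbb-bt, and Alas2, which encodes the first enzyme of heme synthesis in red cell precursors. They were chosen by their counts in these same kidneys, in which they were lower in both PKD groups than in wildtype, so their levels and fold changes are given here as a description, without a test. RNA of 32 kidneys of male C57BL/6 mice was sequenced: 8 wildtype, 12 PKD and 12 PKD + Salsalate kidneys. The study used the iKspCre-Pkd1del line, in which tamoxifen turns on a Cre recombinase made under the KspCad promoter in kidney tubules and removes exons 2 to 11 of Pkd1. Kidneys labelled wildtype came from mice given no tamoxifen and were taken at 109 days of age, and whether each of those mice carried the Cre and the loxP sites is not given in the sources used here, whereas PKD mice received 150 mg/kg of tamoxifen by mouth on postnatal days 18 and 19 and were 95 days old. PKD + Salsalate mice were treated as PKD mice and also ate chow with 2.5 g/kg of salsalate, a prodrug of salicylate, for 2 weeks from day 81. Tamoxifen, the deletion and age therefore cannot be told apart in any comparison with wildtype.

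Adult mouse hemoglobin is a tetramer of alpha and beta chains, each with a heme group that binds oxygen, and it is made in red cell precursors of bone marrow and spleen. Young red cells that enter the blood, the reticulocytes, still carry globin and Alas2 transcripts, while older red cells lose their RNA. The kidney makes erythropoietin, the hormone that drives red cell production, and it reclaims hemoglobin and iron that pass the glomerular filter. In RNA of a whole organ, fewer cells of a type and less RNA per cell cannot be told apart, and the amount of blood left in a kidney is part of the same value. Whether the kidneys were flushed of blood is not given in the sources used here.

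Poly(A) RNA was counted gene by gene and strand by strand, with 11193136 to 109807664 counts per kidney, and levels are given as CPM, the count of a gene relative to the size of the kidney's library, with sizes made comparable by TMM scaling (trimmed mean of M-values). At the lowest total, 1 CPM stood for 11.2 counts. The kidney markers Umod, Slc34a1, Nphs1, Aqp2, Slc12a1 and Kap were present in every kidney. Pkd1 was at 53.1 to 86.4 CPM in wildtype, 70.7 to 113 CPM in PKD and 67.4 to 120 CPM in PKD + Salsalate kidneys, over the whole gene, with the exons that remain, so these counts do not check the deletion. The names of 5 wildtype libraries end in R and those of the other 3 do not, an ending that no PKD library has, and what it stands for is not given in the sources used here. These sets differed in 48.1% of 13961 genes (edgeR's quasi-likelihood test, adjusted p under 0.05), so both are given separately. PKD replicate 10 carried transcripts of liver, with Alb, the albumin gene, at 1930 CPM against 1.77 to 3.61 CPM in the other 11 PKD kidneys.

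The globin genes come in near-identical pairs, which limits what a count of uniquely placed reads can show. Hba-a1 (ENSMUSG00000069919, chromosome 11, 32233186 to 32234504, plus strand) and Hba-a2 (ENSMUSG00000069917, chromosome 11, 32246168 to 32247320, plus strand) differ by 1 of 426 coding bases. Hbb-bs (ENSMUSG00000052305, chromosome 7, 103475730 to 103482989, minus strand) and Hbb-bt (ENSMUSG00000073940, chromosome 7, 103461727 to 103465047, minus strand) differ by 1 of 441. Neither difference changes an amino acid. These 60-base coding stretches are shown because they hold the only coding base that tells each pair apart, in capitals (GRCm39, read along the gene):
Hba-a1 (chr11:32234313-32234372, plus strand): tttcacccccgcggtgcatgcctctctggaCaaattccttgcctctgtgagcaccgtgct
Hba-a2 (chr11:32247130-32247189, plus strand): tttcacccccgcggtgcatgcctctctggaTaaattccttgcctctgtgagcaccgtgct
Hbb-bs (chr7:103475875-103475934, minus strand): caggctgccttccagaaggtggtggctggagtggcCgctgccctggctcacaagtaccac
Hbb-bt (chr7:103461866-103461925, minus strand): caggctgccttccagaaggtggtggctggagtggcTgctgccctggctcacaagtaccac
Counted from the A of the start codon, the substitutions are C381T between Hba-a1 and Hba-a2 and C417T between Hbb-bs and Hbb-bt. Reads that match both genes of a pair were not counted, because only uniquely placed reads were. Of all 100-base windows of the transcripts, 21.1% of those of Hba-a1, 22.1% of Hba-a2, 37.3% of Hbb-bs and 37.8% of Hbb-bt are found in no other gene, and the partner gene of the pair held the others. For 150-base windows the shares were 35.3%, 34.6%, 41.2% and 41.7%. The genes of a pair thus keep nearly equal parts of their transcripts, and the counts of all 4 understate the RNA that was present. The read length is not given in the sources used here. Alas2 (ENSMUSG00000025270, chromosome X, 149330371 to 149353634, plus strand) shares no window with another gene.

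The members lie at 3 loci on different chromosomes, and 1 promoter from each is shown for the words it holds. The sequences are the 120 bases before the RefSeq transcript start, placed on GRCm39 by an exact match. Capitals mark the TATA box word, which is TATAA, and the core words of globin promoters CCAAT as well as CACCC, on either strand. They also mark words that erythroid GATA factors bind, written with A or T, then GATA, then A or G:
Hba-a1 (chr11:32233552-32233671, plus strand): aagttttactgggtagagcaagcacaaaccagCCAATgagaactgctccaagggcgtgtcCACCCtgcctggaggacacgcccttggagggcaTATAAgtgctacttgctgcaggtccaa
Hbb-bs (chr7:103477136-103477255, minus strand): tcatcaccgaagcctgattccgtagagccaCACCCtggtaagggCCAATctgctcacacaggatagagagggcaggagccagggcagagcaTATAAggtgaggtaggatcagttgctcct
Alas2 (chrX:149330293-149330412, plus strand): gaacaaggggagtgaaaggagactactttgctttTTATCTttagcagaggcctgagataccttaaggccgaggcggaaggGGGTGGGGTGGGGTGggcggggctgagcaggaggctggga
In the globin promoters TATAA began 27 bases before the start of Hba-a1 and 29 before that of Hbb-bs. Within 250 bases before the start, a GATA word stood in 4 of the 5 members, all but Hbb-bt, against 27.1% of 27025 RefSeq promoters. CACCC stood in all 5 against 51.3%, and CCAAT in the 4 globin genes against 34.5%. The Hba-a1 stretch occurs at 2 places on chromosome 11. The stretch before Hba-a2 repeats nearly all of its bases, so the 2 alpha-globin promoters are not separate cases in these counts. These are matches of letters, not measured binding sites, and their part in the levels of the members was not tested.

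Alpha globin was lower in PKD kidneys than in wildtype kidneys. Hba-a1 was at 340, 109, 141, 255 and 128 CPM in the 5 wildtype kidneys ending in R and at 252, 167 and 125 CPM in the other 3. In PKD kidneys its lowest value was 19.8, its median 48.6 and its highest 71.5 CPM. Every PKD kidney thus lay below every wildtype kidney of both sets. The log2 fold change of Hba-a1 between PKD and wildtype was -1.99 (SE 0.23), a level 3.98 times lower, and it was -2.03 (SE 0.26) with only the wildtype libraries ending in R and -1.94 (SE 0.28) with only the other 3.

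Hba-a2, the other alpha-globin gene, was at 41.7, 13.3, 17.8, 47.4 and 11.5 CPM in the wildtype kidneys ending in R and at 12.5, 10.4 and 7.04 CPM in the other 3. PKD kidneys had 1.06 to 4.56 CPM with a median of 2.36, from 25 to 109 counts, and again lay below every wildtype kidney. The log2 fold change was -3.13 (SE 0.36), larger than that of Hba-a1, but it depended on the wildtype set. It was -3.53 (SE 0.35) with only the R-ending wildtype libraries and -2.13 (SE 0.38) with only the other 3, a value close to that of Hba-a1.

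Beta globin was lower in PKD kidneys by a similar factor. Hbb-bs was at 394, 116, 162, 255 and 111 CPM in the wildtype kidneys ending in R and at 254, 161 and 128 CPM in the other 3, and PKD kidneys lay between 22.2 and 83.8 CPM with a median of 57.5. No PKD kidney reached the wildtype range. The log2 fold change was -1.81 (SE 0.23), with -1.89 and -1.70 with only the R-ending wildtype libraries and with only the other 3. Hbb-bt, the other beta-globin gene, was at 19.3, 3.62, 6.29, 10.0 and 3.19 CPM in the wildtype kidneys ending in R. It was at 12.6, 9.77 and 5.44 CPM in the other 3, and at 1.06 to 4.49 CPM in PKD kidneys, with a median of 2.19. Its ranges overlapped, with 9 of 12 PKD kidneys below every wildtype kidney, and its log2 fold change was -1.85 (SE 0.28).

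Alas2 was lower in PKD kidneys as well, from a lower level than globin. It was at 10.4, 2.67, 5.09, 6.10 and 2.74 CPM in the wildtype kidneys ending in R and at 12.1, 7.04 and 4.93 CPM in the other 3. PKD kidneys had 0.731 to 5.20 CPM with a median of 1.89, and 11 of 12 lay below every wildtype kidney. The exception was PKD replicate 10, the kidney with liver transcripts, which held the 5.20 CPM, and the next PKD kidney was at 2.41 CPM. The log2 fold change of Alas2 was -1.68 (SE 0.29), and -1.87 without PKD replicate 10. It was -1.42 (SE 0.33) with only the R-ending wildtype libraries and -2.02 (SE 0.34) with only the other 3, the opposite order to that of Hba-a2.

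**Figure D1:**
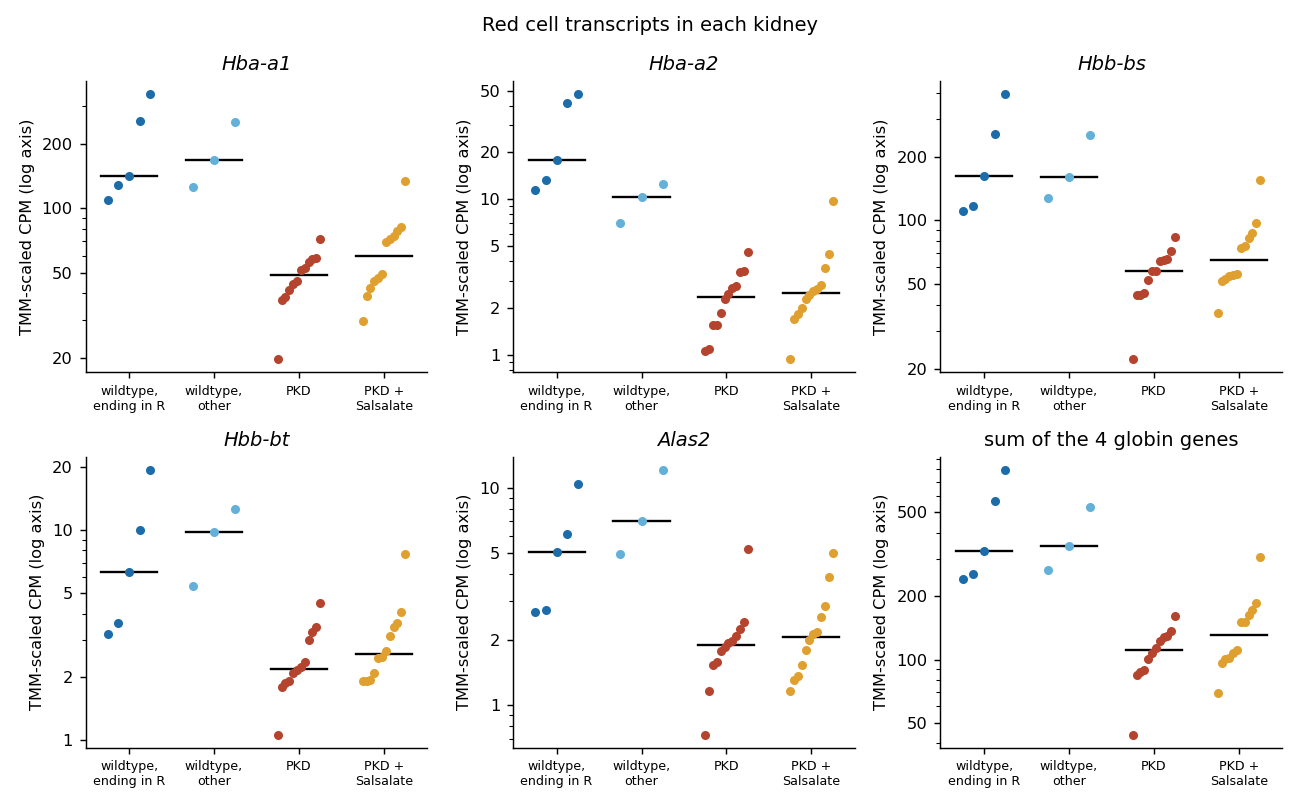
TMM-scaled CPM on a log axis for each of the 5 genes and for the sum of the 4 globin genes, 1 point per kidney, with a black line at the median of each group. For Hba-a1, Hba-a2, Hbb-bs and the sum, all 12 PKD kidneys lie below all 8 wildtype kidneys, and the highest PKD + Salsalate kidney, at 306 CPM in the sum, lies within the wildtype range.

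Across the members, 3 of 5 had PKD and wildtype ranges that did not overlap (Hba-a1, Hba-a2 and Hbb-bs). Over all 13961 genes tested, 7.28% had ranges that did not overlap in this comparison, 2.07% with PKD kidneys lower, and 49.1% passed the edgeR test. As the members were chosen on this comparison, nothing is read from their count. The sum of the 4 globin genes was 242 to 795 CPM in wildtype kidneys (median 337) and 44.1 to 162 CPM in PKD kidneys (median 111). In shares of all counts this was 0.0232% to 0.0745% in wildtype and 0.00459% to 0.0167% in PKD kidneys, so globin was a small part of every library. Within a group the sum still varied widely, by a factor of 3.28 from the lowest to the highest wildtype kidney and of 3.67 among PKD kidneys. All 5 members passed the filter on low counts, which asked for log2 CPM above 1 in 8 or more of 32 kidneys and which the 8 wildtype kidneys alone would have met for each of them. In PKD kidneys that level was exceeded by 7 of 12 for Hba-a2, 8 for Hbb-bt and 5 for Alas2.

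Kidneys of PKD + Salsalate mice were also below wildtype, with 1 kidney that stood higher. Hba-a1 was between 29.8 and 133 CPM in these kidneys (median 59.5), Hba-a2 between 0.940 and 9.76 CPM (median 2.49) and Hbb-bs between 36.6 and 156 CPM (median 64.9). For each of these genes 11 of 12 kidneys lay below every wildtype kidney, and the exception was PKD + Salsalate replicate 2. Hbb-bt was between 1.91 and 7.71 CPM (median 2.57), with 8 of 12 kidneys below every wildtype kidney, and Alas2 between 1.16 and 5.03 CPM (median 2.05), with 9 of 12. Log2 fold changes against wildtype were -1.58 for Hba-a1 (SE 0.23), -2.71 for Hba-a2 (SE 0.35), -1.43 for Hbb-bs (SE 0.23), -1.48 for Hbb-bt (SE 0.28) and -1.48 for Alas2 (SE 0.29). With only the R-ending wildtype libraries they were -1.62, -3.10, -1.50, -1.43 and -1.22 in the same order, and with only the other 3 -1.52, -1.70, -1.31, -1.57 and -1.81. In this comparison 44.9% of all genes passed the test, and 0 of 5 members had ranges that did not overlap, against 6.39% of all genes.

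Between PKD + Salsalate and PKD kidneys, all 5 members were somewhat higher with salsalate, and no member's ranges were separate. Log2 fold changes were 0.41 for Hba-a1 (SE 0.21), 0.42 for Hba-a2 (SE 0.35), 0.38 for Hbb-bs (SE 0.21), 0.37 for Hbb-bt (SE 0.27) and 0.20 for Alas2 (SE 0.28). The sum of the globin genes had a median of 131 CPM with salsalate and 111 CPM without, and 7 of 12 PKD + Salsalate kidneys lay above the PKD median. PKD + Salsalate replicate 2 was the highest of its group in all 5 genes, with a globin sum of 306 CPM, and replicate 1 was next at 186 CPM. Without replicate 2 the log2 fold changes were 0.26, 0.09, 0.23, 0.16 and 0.03. The test was passed by 0.580% of all genes in this comparison, and 0.0287% had ranges that did not overlap.

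**Figure D2:**
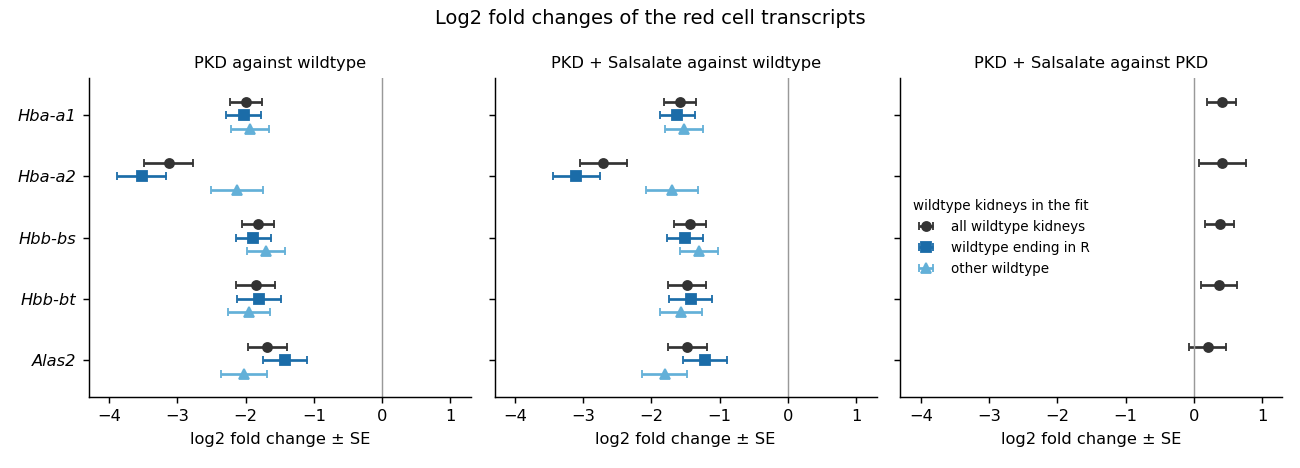
Log2 fold changes with their standard errors for the 5 genes in the 3 comparisons, from edgeR fits with all wildtype kidneys (circles), only those ending in R (squares) or only the others (triangles). Hba-a2 moves most with the choice of wildtype kidneys, from -3.53 to -2.13 in PKD against wildtype. PKD + Salsalate against PKD is shown only for the fit with all wildtype kidneys, with values between 0.20 and 0.42.

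Ratios between the members do not depend on library scaling. Counts of both alpha-globin genes over counts of both beta-globin genes were 0.924 to 1.22 in wildtype kidneys (median 1.01), 0.789 to 0.923 in PKD kidneys (median 0.856) and 0.736 to 0.961 in PKD + Salsalate kidneys (median 0.880). Every PKD kidney had a lower ratio than every wildtype kidney, and the ranges of the wildtype sets, 0.924 to 1.22 for libraries ending in R and 0.987 to 1.04 for the others, overlapped each other. The margin was small, since the lowest wildtype kidney stood at 0.924 and the highest PKD kidney at 0.923. As the uniquely countable part of the transcripts differs between the alpha and beta genes, the ratio compares kidneys and does not give the amounts of the chains' transcripts.

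Hba-a2 counts per 100 Hba-a1 counts separated the wildtype sets from each other. They were 12.2, 12.2, 12.6, 18.6 and 8.96 in the kidneys ending in R and 4.98, 6.24 and 5.63 in the other 3, without overlap. PKD kidneys had 2.91 to 8.18 (median 4.85) and PKD + Salsalate kidneys 2.77 to 7.33 (median 4.48), below all kidneys ending in R and around the other 3. The share of alignments that had more than 1 place in the genome, which were not counted, was 8.88% to 9.82% in the libraries ending in R, 7.76% to 8.13% in the other wildtype libraries, 7.13% to 8.62% in PKD and 7.14% to 8.87% in PKD + Salsalate libraries. Its part in the ratio was not tested. Hbb-bt counts per 100 Hbb-bs counts, the corresponding ratio of the beta pair, were 2.87 to 4.90 in the kidneys ending in R and 4.24 to 6.08 in the others, with 3.27 to 6.25 in PKD and 3.25 to 5.61 in PKD + Salsalate kidneys, so all groups overlapped.

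Alas2 counts per 1000 globin counts also separated the wildtype sets, in the other direction. They were 13.1, 11.0, 15.6, 10.7 and 10.8 in the kidneys ending in R and 22.7, 20.3 and 18.6 in the other 3. PKD kidneys had 12.3 to 37.9 (median 17.4), with the 37.9 in PKD replicate 10 and 22.0 as the highest value without it. PKD + Salsalate kidneys had 12.1 to 23.8 (median 15.2). The PKD groups thus spanned the gap between the wildtype sets, and the direction depended on the set: the mean ratio of PKD kidneys was 1.51 times that of the libraries ending in R and 0.903 times that of the others.

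**Figure D3:**
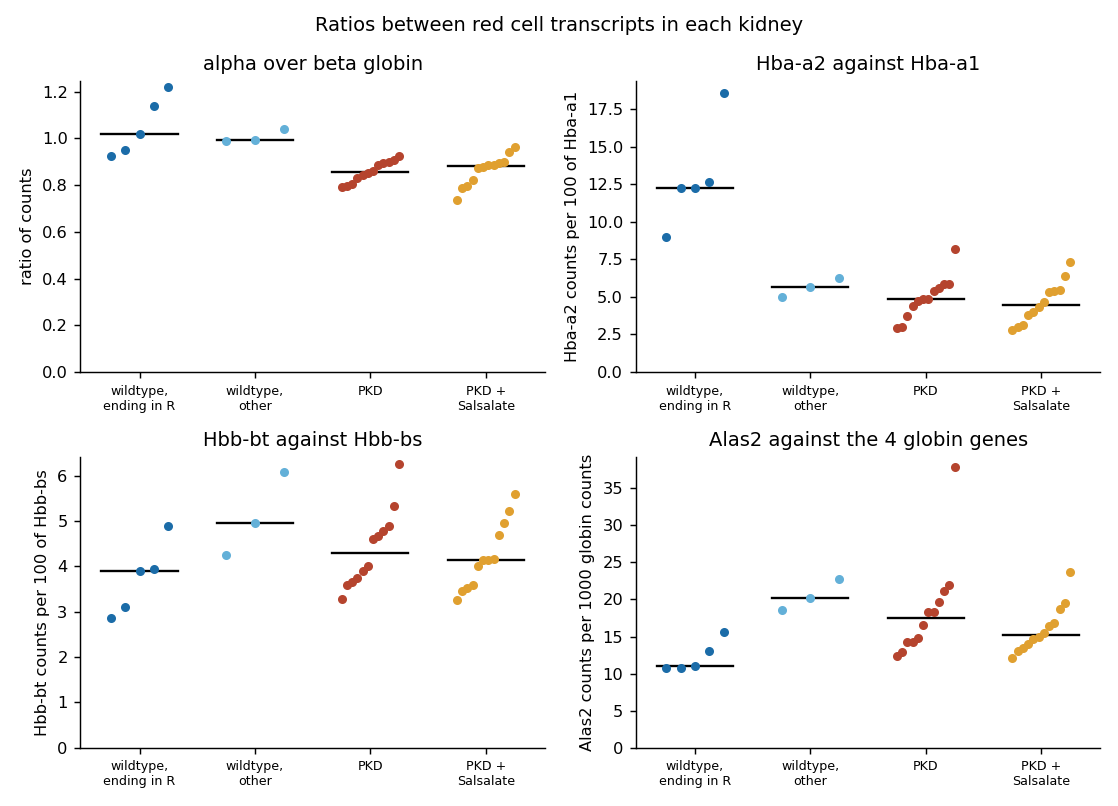
Ratios of counts within each kidney, 1 point per kidney with a black line at the median: alpha over beta globin, Hba-a2 per 100 Hba-a1, Hbb-bt per 100 Hbb-bs and Alas2 per 1000 globin counts. The 5 wildtype kidneys ending in R stand above the other 3 in Hba-a2 per 100 Hba-a1 and below them in Alas2 per 1000 globin counts.

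Per kilobase of transcript, the level of Hba-a1 in wildtype kidneys had a median of 267 CPM per kb and that of Hbb-bs 256, against 23.5 for Hba-a2, 12.7 for Hbb-bt and 2.80 for Alas2. The medians of Hba-a1 and Hbb-bs differed by much less than their SDs over the 8 kidneys, 144 and 155. In PKD kidneys Hbb-bs, at 91.3, stood above Hba-a1, at 84.2, with SDs of 25.4 and 22.9, and Hba-a2 and Hbb-bt stood at 4.28 and 3.47, with SDs of 1.91 and 1.46. Neither of these neighbours differed by more than its spread. These levels rest on uniquely placed reads and are too low for the globin genes.

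Embryonic and minor globin genes were at or near 0. Of 8 such genes (Hbb-y, Hbb-bh0, Hbb-bh1, Hbb-bh2, Hbb-bh3, Hba-x, Hbq1a and Hbq1b), 5 had no count in any kidney, and the highest count of any was 3, for Hbq1b. Of 23 genes for proteins of red cells, 22 had a row and only 4 passed the filter, so most of the red cell list was too low to test at this depth. Rhag, a membrane protein of the Rh complex, had at most 1 count, and Car1, a carbonic anhydrase of red cells, and Hemgn had at most 2. Gata1, the master regulator of red cell precursors, had at most 2 counts. Epb42, a membrane skeleton protein that was also below the filter, was at 0.284 to 0.744 CPM in wildtype kidneys and 0.641 to 1.82 CPM in PKD kidneys, the opposite direction to globin. Ahsp, whose product binds free alpha globin, matched no row of the table and was not analysed here.

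Among the red cell proteins that could be tested, the genes did not move as a group. Of 4 genes, 2 rose and 1 fell in PKD against wildtype, beside 49.1% of all 13961 genes called. Their median log2 fold change was -0.01, against -0.01 over all genes. Sptb, the spectrin of the red cell membrane that muscle and other tissues also make, was at 8.40 to 13.7 CPM in wildtype kidneys (median 9.30) and 4.57 to 6.55 in PKD kidneys (median 5.77), without overlap. It fell with a log2 fold change of -0.83 (SE 0.09, adjusted p = 4.42e-09 by edgeR's quasi-likelihood test with Benjamini-Hochberg adjustment). Tspan33 rose slightly, by 0.20 (SE 0.08, edgeR adjusted p = 0.0397), but its log2 fold change was 0.39 with only the R-ending wildtype libraries and -0.08 with only the other 3. In PKD + Salsalate against wildtype Sptb and Tspan33 were called in the same directions, with log2 fold changes of -0.73 and 0.24.

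Regulators of red cell development that passed the filter numbered 6 of 10. Of these 1 rose and 2 fell in PKD against wildtype, beside 49.1% of all genes called. Epor, the erythropoietin receptor, rose by 0.46 (SE 0.14, edgeR adjusted p = 0.00595), with 0.69 for the wildtype libraries ending in R and 0.16 for the other 3, where it did not pass the test. Zfpm1, the GATA partner FOG1, fell by 0.28 on the log2 scale (SE 0.07, edgeR adjusted p = 0.00245) and Lmo2 fell by 0.27 (SE 0.11, edgeR adjusted p = 0.0322). Between the wildtype sets 5 of the 6 regulators were called, beside 48.1% of all genes. Lmo2 differed between these sets by 0.69 and reached -0.50 with only the R-ending wildtype libraries and 0.18 with only the other 3. Klf1 and Lyl1 were not called in PKD against wildtype, at -0.32 and 0.29 (edgeR adjusted p = 0.066 and 0.12). They were at -0.68 and 0.88 with only the libraries not ending in R, where both passed the test, and at -0.02 and -0.01 with only those ending in R. Tal1, another regulator, passed the test in PKD + Salsalate against wildtype, at 0.30 (edgeR adjusted p = 0.048), and was at 0.21 in PKD against wildtype (edgeR adjusted p = 0.145).

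Genes for red cell proteins that kidney cells also make moved both ways. Of 20 tested, 5 rose and 10 fell in PKD against wildtype, and 4 rose and 7 fell in PKD + Salsalate against wildtype. Over all genes, 49.1% and 44.9% were called in these comparisons. Slc4a1 encodes the anion exchanger of the red cell membrane, of which acid-secreting intercalated cells of the collecting duct make a shorter form. It was at 42.4, 24.7, 21.8, 32.0 and 25.0 CPM in the wildtype kidneys ending in R, at 27.2, 39.2 and 26.1 CPM in the others and at 7.47 to 13.0 CPM in PKD kidneys (median 11.1), without overlap. Its log2 fold change was -1.46 (SE 0.14, edgeR adjusted p = 2.08e-10), and -1.43 and -1.52 against the wildtype sets. In PKD + Salsalate against wildtype it was -1.10 (SE 0.14, edgeR adjusted p = 7.87e-08).

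Atp6v1g3, a proton pump subunit of intercalated cells, also fell in PKD against wildtype, by 1.14 on the log2 scale (SE 0.14, edgeR adjusted p = 2.79e-08). The size of this fall depended on the wildtype set. Atp6v1g3 was at 56.8 to 84.2 CPM in the wildtype kidneys ending in R and at 37.5 to 39.3 CPM in the others. PKD kidneys had 19.1 to 39.9 CPM, with a mean 0.380 times that of the R-ending set and 0.684 times that of the others. The part of Atp6v1g3 in the change of Slc4a1 was not tested. Tent5c, a poly(A) polymerase induced in red cell precursors, fell by 0.82 (SE 0.12, edgeR adjusted p = 6.58e-07), with -0.86 and -0.76 against the wildtype sets. Ucp2, a mitochondrial carrier, rose by 0.58 (SE 0.09, edgeR adjusted p = 2.47e-06). Smaller falls were found for Blvrb (-0.35, edgeR adjusted p = 0.0105), which reduces biliverdin, the nucleoside transporter Slc29a1 (-0.35, edgeR adjusted p = 9.04e-05) and the amino acid transporter Slc43a1 (-0.34, edgeR adjusted p = 0.0379). Against the wildtype libraries not ending in R none of these 3 passed the test, and Blvrb was at -0.02.

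Heme synthesis outside Alas2 changed far less. Of 16 genes tested, 2 rose and 6 fell in PKD against wildtype, with a median log2 fold change of -0.07. In PKD + Salsalate against wildtype 1 rose and 3 fell. The shares called over all genes were 49.1% and 44.9%. Alas1, the form of the enzyme that all other cells use, was at 155 ± 27.1 CPM in wildtype (SD, n = 8) and 188 ± 38.8 CPM in PKD kidneys (SD, n = 12), and its log2 fold change of 0.28 (SE 0.14, edgeR adjusted p = 0.0915) did not pass the test. Cpox and Ppox, which act late in the pathway, fell by 0.52 (SE 0.11, edgeR adjusted p = 0.000391) and 0.43 (SE 0.08, edgeR adjusted p = 3.33e-05). Fech, which puts iron into heme, was at -0.28 (SE 0.08, edgeR adjusted p = 0.00673), with -0.12 against the libraries ending in R, where it did not pass the test, and -0.51 against the others. Urod fell by 0.21 (SE 0.06, edgeR adjusted p = 0.00828). Ppox did not pass the test against the wildtype libraries not ending in R (-0.19), nor Urod against those ending in R (-0.16). The mitochondrial carrier Slc25a37, mitoferrin, rose by 0.30 (SE 0.06, edgeR adjusted p = 6.58e-05).

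Genes that take up and break down hemoglobin, heme and iron moved both ways in PKD kidneys. Of 17 tested, 6 rose and 3 fell, beside 49.1% of all genes called, and without PKD replicate 10 5 rose and 3 fell. The median log2 fold change was 0.19, and in PKD + Salsalate against wildtype 2 rose and 4 fell, beside 44.9% of all genes. Hmox1, heme oxygenase, which opens the heme ring, was at 12.9 to 26.8 CPM in wildtype (median 20.1), 18.4 to 53.2 in PKD (median 29.1) and 16.1 to 35.4 in PKD + Salsalate kidneys (median 25.9). It rose in PKD against wildtype by 0.72 (SE 0.18, edgeR adjusted p = 0.00164), with 0.88 with only the R-ending wildtype libraries and 0.48 with only the other 3, where the adjusted p of edgeR was 0.138.

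Lrp1, a receptor that clears heme bound to hemopexin among many ligands, rose by 0.72 (SE 0.10, edgeR adjusted p = 5.0e-07). Lrp2, megalin, the uptake receptor of the proximal tubule, rose by 0.58 (SE 0.15, edgeR adjusted p = 0.00246), though only against the libraries ending in R (1.06) and not against the others (0.02). The ferritin heavy chain Fth1 fell by 0.58 on the log2 scale (SE 0.10, edgeR adjusted p = 1.09e-05), with -0.72 and -0.32 against the wildtype sets, and Ncoa4, which delivers ferritin for breakdown, fell by 0.33 (SE 0.14, edgeR adjusted p = 0.0442), a call that was lost against either wildtype set alone. Hp, haptoglobin, which binds free hemoglobin in plasma and is made mainly by liver, had a log2 fold change of 2.67 (SE 0.90, edgeR adjusted p = 0.0146) that rested on PKD replicate 10. Hp was at 676 CPM in that kidney and at 2.76 to 29.2 CPM in the other PKD kidneys, and without that kidney the log2 fold change was -0.18.

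**Figure D4:**
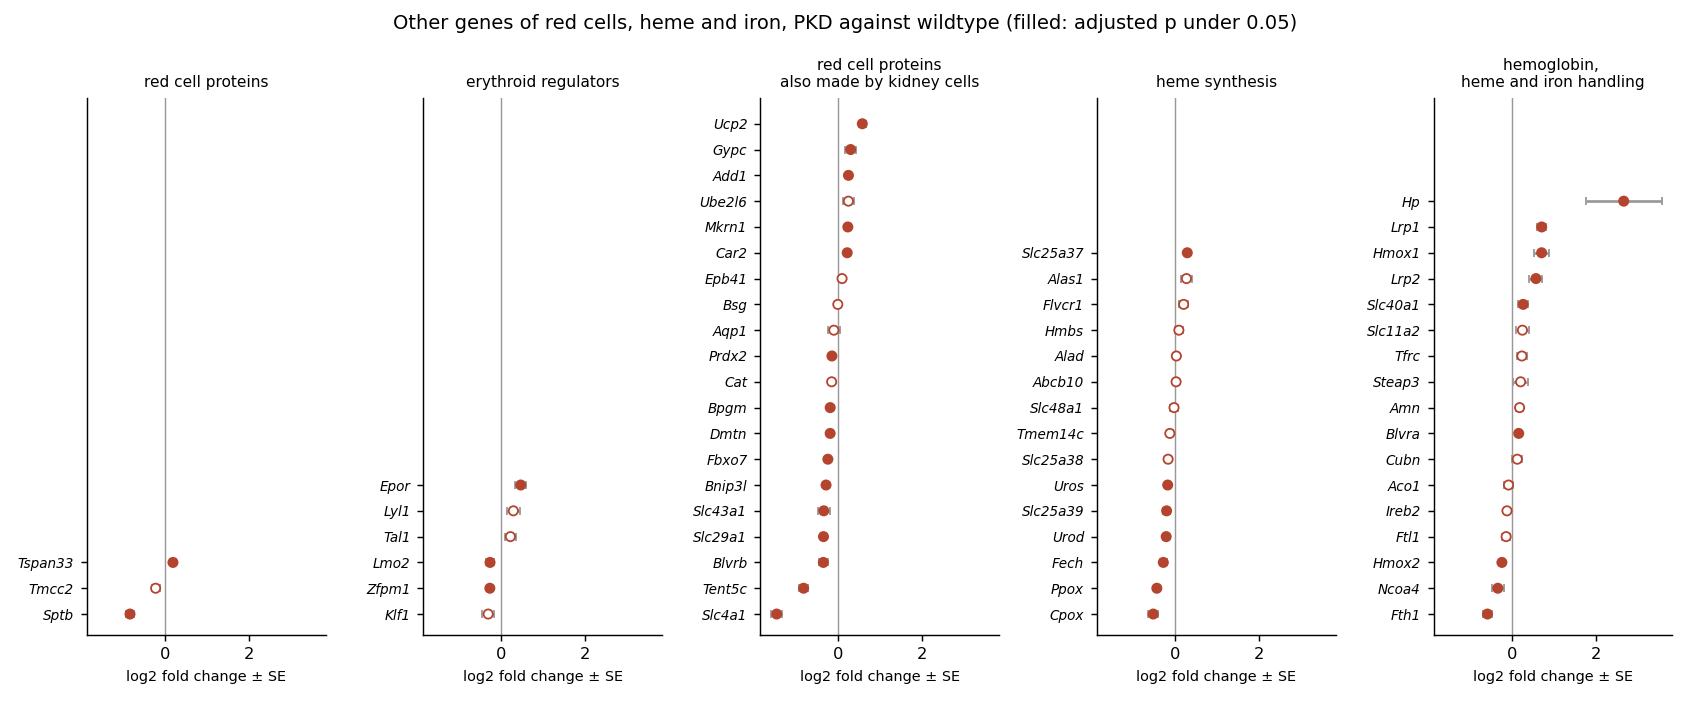
Log2 fold changes with standard errors in PKD against wildtype for tested genes of 5 lists, with genes past an adjusted p of 0.05 filled. Slc4a1 and Sptb lie furthest below 0 and Hp furthest above it, and most genes of heme synthesis lie within 0.5 of 0.

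Epo itself, which few interstitial cells of the kidney make, was below the filter, with 0 to 58 counts and 0 in 12 kidneys. Wildtype kidneys had 0 to 0.182 CPM, PKD kidneys 0 to 1.93 CPM and PKD + Salsalate kidneys 0 to 0.574 CPM, levels too low to test at this depth. Of 8 tested genes of oxygen sensing, 0 rose and 2 fell in PKD against wildtype, beside 49.1% of all genes called. Egln2, a prolyl hydroxylase that marks hypoxia-inducible factors for breakdown, fell by 0.90 (SE 0.11, edgeR adjusted p = 5.89e-08), and it was at -0.75 with only the wildtype libraries not ending in R. Epas1, which encodes HIF2A, the factor that drives Epo, was at -0.34 (SE 0.08, edgeR adjusted p = 0.00107) but differed between the wildtype sets by 0.49, and was at -0.03 against the libraries not ending in R. In PKD + Salsalate against wildtype Hif3a (0.63) and Egln3 (0.29) were called higher as well, with edgeR adjusted p = 0.0156 and 0.0248.

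Markers of other blood cells and of vessels did not fall with globin as a group. Of 12 platelet markers only 2 passed the filter: Pf4, platelet factor 4, rose in PKD against wildtype by 0.89 (SE 0.22, edgeR adjusted p = 0.00105) and Itga2b, the platelet integrin, fell by 0.55 (SE 0.08, edgeR adjusted p = 2.29e-06). The summed platelet level was 14.6 to 20.0 CPM in wildtype and 9.64 to 14.4 CPM in PKD kidneys, most of it Itga2b, and Gp1bb was at 0 in every kidney. Of the neutrophil markers only Csf3r, the receptor for a growth factor of granulocytes, was tested, and it rose by 1.27 (SE 0.18, edgeR adjusted p = 4.5e-07). S100a8, an abundant transcript of blood neutrophils, had at most 16 counts. The summed neutrophil level was 2.41 to 5.58 CPM in wildtype and 5.89 to 9.06 CPM in PKD kidneys. Of 6 lymphocyte markers tested, 2 rose and 1 fell in PKD against wildtype, beside 49.1% of all genes called. Cd8a was up by 0.79 and Cd4 by 0.74 on the log2 scale (edgeR adjusted p = 0.00134 and 0.00856).

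Endothelial markers had a summed level of 725 to 961 CPM in wildtype, 756 to 841 in PKD and 717 to 870 CPM in PKD + Salsalate kidneys. Of 12 tested, 3 rose and 4 fell in PKD against wildtype, beside 49.1% of all genes called. Cdh5, the junction protein of vessel walls, rose by 0.70 and Plvap by 0.42, while Ehd3 fell by 0.83, Flt1 by 0.55, Kdr by 0.54 and Egfl7 by 0.34 on the log2 scale. Ehd3, Flt1 and Egfl7 were higher in the wildtype libraries ending in R than in the other 3, by 0.98, 1.05 and 0.99 on the log2 scale. With only those other 3, PKD against wildtype was at -0.16 for Ehd3, 0.17 for Flt1 and 0.34 for Egfl7, the opposite direction for Flt1 and Egfl7. Of 12 kidney markers 1 rose and 6 fell in PKD against wildtype, and of 10 liver markers 7 rose and 0 fell. Without PKD replicate 10 the liver markers moved both ways, with 3 that rose and 4 that fell. The 3 that rose were the fibrinogen genes Fgb, Fgg and Fga, by 1.88, 1.78 and 1.09 on the log2 scale. Among the 4 that fell was Alb, lower in PKD than in wildtype kidneys with a log2 fold change of -1.28 (SE 0.19, edgeR adjusted p = 1.88e-06). The median summed liver level was 233 CPM in wildtype and 236 CPM in all PKD kidneys. Their part, and that of the other blood and vessel genes, in the change of globin was not tested.

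The wildtype sets also differed in listed genes, as they did over all genes. Over all 13961 genes tested, 48.1% were called between the wildtype sets and 49.1% in PKD against wildtype. For PKD + Salsalate the shares were 44.9% against wildtype and 0.580% against PKD. Of 113 genes tested outside the members, 50 were called between the 5 libraries ending in R and the other 3. In PKD against wildtype 66 were called, in PKD + Salsalate against wildtype 48 and in PKD + Salsalate against PKD 1. The single gene was Alb, which was decided by PKD replicate 10, and without that kidney the count was 0. For the members, the log2 difference between the sets was 0.10 for Hba-a1 (SE 0.37), 0.20 for Hbb-bs (SE 0.38), -0.14 for Hbb-bt (SE 0.43), -0.59 for Alas2 (SE 0.43) and 1.40 for Hba-a2 (SE 0.50). The ranges of the sets did not overlap in 0 of 5 members, against 43.8% of all genes.

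Over the 32 kidneys, the genes whose log2 CPM followed the globin sum most closely were the members themselves, with Pearson's r of 0.998 for Hba-a1 and for Hbb-bs, 0.949 for Hbb-bt, 0.936 for Hba-a2 and 0.914 for Alas2. The 4 globin genes are part of the sum, and Alas2 is not. The next genes were Pgam2 (0.854), a phosphoglycerate mutase, Pvalb (0.849), Klk1 (0.848), Calb1 (0.846) and Slc12a3 (0.839). Of these Pvalb and Slc12a3, the thiazide-sensitive transporter, mark the distal convoluted tubule, and Klk1 and Calb1 are made in the distal and connecting tubule. Their levels were lower in PKD kidneys too, with Calb1 at 284 ± 76.4 CPM in wildtype (SD, n = 8) and 96.0 ± 15.3 CPM in PKD kidneys (SD, n = 12). These correlations rest largely on the step between wildtype and PKD that all these genes share.

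Within the groups the order was different. After the mean of each group, with the wildtype sets apart, was taken off, r was 0.996 for Hbb-bs, 0.995 for Hba-a1, 0.911 for Hbb-bt, 0.866 for Alas2 and 0.859 for Hba-a2. The highest values of other genes were 0.687 for Tox3, 0.672 for Coa7, 0.663 for Gnl3, 0.652 for Spp2 and 0.620 for Ndufa10. The distal tubule genes dropped to 0.579 for Pvalb, 0.430 for Calb1 and 0.364 for Slc12a3. Among 20 genes for red cell proteins that kidney cells also make, r within groups ran from -0.60 to 0.419 with a median of 0.08, with 0.419 for Blvrb, 0.232 for Slc4a1 and -0.04 for Tent5c. Sptb was at -0.62. Alas2, from another chromosome and with uniquely placed reads throughout, thus had the highest value outside the globin pairs in a set of 13961 genes. Without PKD replicate 10 its r was 0.903 and that of Tox3, the next gene, was 0.719. These values are descriptions over kidneys of different depth, and the kidneys share their groups.

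**Figure D5:**
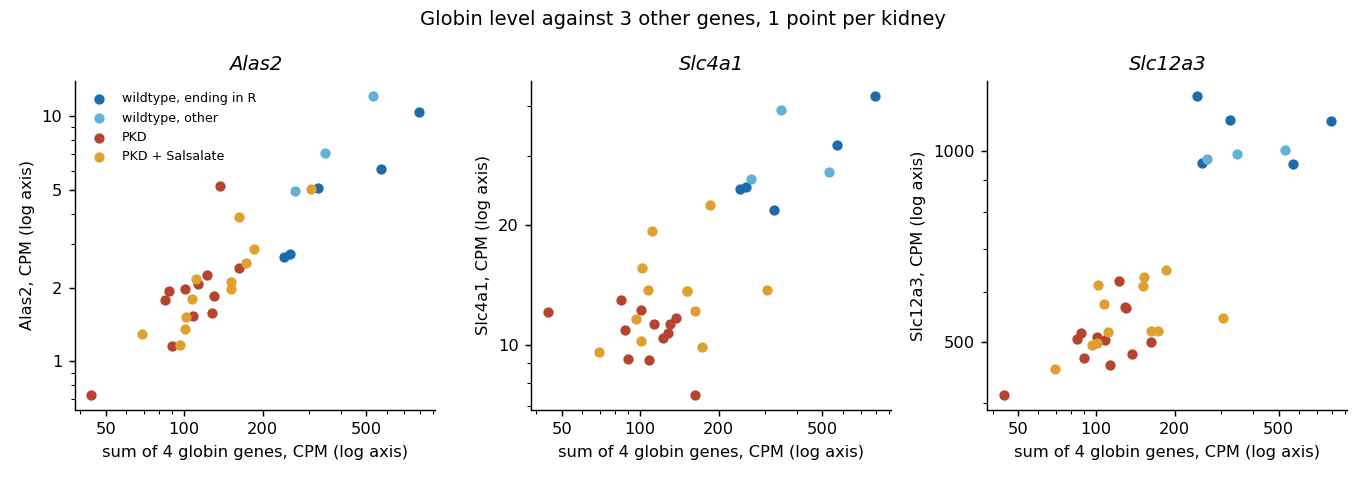
The summed CPM of the 4 globin genes against the CPM of Alas2, Slc4a1 and Slc12a3, both on log axes, 1 point per kidney. Alas2 rises with globin inside each group, with PKD replicate 10 above the others at 5.20 CPM, while Slc12a3 shows a step between wildtype and PKD kidneys with r of 0.364 inside groups.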

How the data were processed

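The authors deposited 1 table of read counts, not normalized, for 53700 genes in 32 kidneys. Per the paper and the submitters' processing notes, they selected poly(A) RNA, trimmed reads with cutadapt 2.10, aligned them to GRCm39 with STAR 2.7.5a and counted uniquely placed reads by strand with HTSeq 0.12.4 on Ensembl genes. Between 73.6% and 83.1% of alignments per kidney were counted. Groups and replicate numbers came from the sample titles, and library names from the table header. Separate animals are not stated for each replicate in the labels, while the paper states that RNA of 32 mice was sequenced. The p-values measure the spread between these samples, which by that account are separate mice.

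The deposited counts were tested with edgeR 4.0.16 (R 4.3.3). The 13961 genes whose log2 CPM exceeded 1 in a share of 25% of the kidneys or more were kept and TMM-scaled, the 3 groups were fitted together by the quasi-likelihood method without covariates, and 2-sided p-values were adjusted over all genes tested (Benjamini-Hochberg, threshold 0.05). The wildtype sets were compared in a fit of 4 groups. Likeness was Pearson's r of log2 CPM (prior count 2). The steps were tested on simulated data. The members and the 13 gene lists were chosen with earlier results of these data known. Named are the members, in each list up to 6 called genes with the largest fold changes, 10 genes fixed by name and the 10 genes of highest r. Epb42, Rhag, Car1, Hemgn, Gata1, Klf1, Lyl1, Gp1bb, Fga, Fgb, Fgg and the genes of highest r within groups were named after their values were seen. Some genes of the lists are counted but not reported by name here. Alternatives were DESeq2 1.42.0 (size factors and Wald test), upper-quartile factors, globin genes left out of the scaling, no filter, filterByExpr, only the groups compared, the replicate block, each kidney left out, and either wildtype set alone. Sequences are RefSeq promoters and GENCODE transcripts on GRCm39. Of the gene identifiers 52610 were named by that annotation and 1090 were not.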

Additional observations from a re-analysis of the deposited data

How the results depend on the processing

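The direction of all 5 members was the same under every scaling, filter and tool tried and with any 1 kidney left out. Hba-a2 moved by more than its spread between kidneys with only the wildtype libraries not ending in R, to -2.13 in PKD and -1.70 in PKD + Salsalate against wildtype. With 1 kidney left out, the log2 fold changes of PKD against wildtype ranged from -2.08 to -1.82 for Hba-a1, -3.26 to -2.81 for Hba-a2, -1.90 to -1.59 for Hbb-bs, -1.98 to -1.60 for Hbb-bt and -1.87 to -1.47 for Alas2. For PKD + Salsalate against PKD they ranged from 0.26 to 0.48, 0.09 to 0.53, 0.23 to 0.45, 0.16 to 0.47 and 0.03 to 0.39, each lowest without PKD + Salsalate replicate 2. Deviations of same-numbered PKD and wildtype kidneys had r from -0.554 to 0.467 over 8 pairs, with r over 0.1 in 3. The numbers were taken as names, and whether they pair kidneys was not tested. With the replicate block the members' log2 fold changes in PKD against wildtype were -1.82, -2.77, -1.63, -1.61 and -1.56. Listed genes called in PKD + Salsalate against PKD numbered 6 without a filter, 3 with filterByExpr, 2 with only the groups compared, 0 with the block, 2 with only the wildtype libraries ending in R, 3 with only the others and 0 to 3 with 1 kidney left out; the cause was not tested. Hp in PKD against wildtype reversed to -0.17 with the DESeq2 Wald test, and with 1 kidney left out it ranged from -0.18, without PKD replicate 10, to 2.95. Alas2 had as few as 17 counts in a PKD kidney, which limits its values more than those of Hba-a1. Of the members' values and the counts of called genes under the scaling, filter, tool, block and wildtype-set alternatives, 179 stayed within their spread or within 1.5 times the count and 8 did not, all given above.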
